A study of Mus musculus with 24 samples.

Results

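The change from round to condensing spermatids was described in wild-type mice, from the 6 arrays labelled as wild-type round spermatids and the 6 labelled as wild-type condensing spermatids, 12 of the 24 arrays of the series. The other 12 arrays hold the same stages from mice whose label reads Cbp/p300 post-meiotic knock down, a reduction of the histone acetyltransferases CBP and p300 in haploid germ cells. All mice were adult and 7 weeks old, total RNA was turned into biotin-labelled cRNA and hybridised to Illumina mouse bead arrays, and neither strain nor the agent behind the knockdown is given in the labels. Whether the 6 arrays of a group come from separate animals or from pools is not in the labels, so p-values measure only the spread between these samples. Every difference below is condensing minus round on the log2 scale, and a gene is called when its adjusted p is under 0.05 (limma, Benjamini-Hochberg over 10759 genes).

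Round spermatids are haploid cells that build the acrosome, the enzyme-filled cap over the nucleus, and start the flagellum while they still transcribe actively. Condensing spermatids replace histones first by transition proteins and then by protamines, shut transcription down as the chromatin compacts, elongate the nucleus along a microtubule skirt called the manchette, and finish the tail. Many messages needed late are made in round spermatids and stored in a repressed form, so the level of a message and the time of its protein are often apart in these cells.

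The protamines and transition proteins are the best-known messages of this transition, and their promoters are shown first because their stage changes differed although 3 of these genes are neighbours. In the RefSeq order on chromosome 16 the genes follow as Tnp2, Prm3, Prm2 and Prm1, and Tnp1 lies on chromosome 1. The windows run from 250 bases before to 50 bases after the RefSeq start (build GRCm38.p6, minus strand for the 4 genes), and capitals mark matches to the letters TGANNTCA, which read the same on both strands and include TGACGTCA, the textbook cAMP response element bound by CREM.
Tnp2, chr16:10788606-10788905: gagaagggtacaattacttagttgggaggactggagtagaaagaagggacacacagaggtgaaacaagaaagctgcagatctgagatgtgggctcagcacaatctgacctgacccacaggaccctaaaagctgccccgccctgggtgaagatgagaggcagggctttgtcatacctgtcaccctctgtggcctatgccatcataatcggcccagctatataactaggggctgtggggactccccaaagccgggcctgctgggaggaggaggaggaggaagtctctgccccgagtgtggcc
Prm3, chr16:10790865-10791164: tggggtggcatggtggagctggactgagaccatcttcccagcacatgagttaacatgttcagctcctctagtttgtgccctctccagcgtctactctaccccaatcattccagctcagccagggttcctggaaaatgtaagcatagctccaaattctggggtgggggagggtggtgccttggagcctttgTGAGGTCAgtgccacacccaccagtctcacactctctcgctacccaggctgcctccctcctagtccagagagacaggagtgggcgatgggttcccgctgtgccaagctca
Prm1, chr16:10796774-10797073: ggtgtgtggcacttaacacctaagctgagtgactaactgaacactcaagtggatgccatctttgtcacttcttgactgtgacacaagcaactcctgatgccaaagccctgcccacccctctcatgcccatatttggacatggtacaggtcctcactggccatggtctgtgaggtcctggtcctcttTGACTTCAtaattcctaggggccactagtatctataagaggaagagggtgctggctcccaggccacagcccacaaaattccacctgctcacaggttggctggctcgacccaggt
Tnp1, chr1:73015850-73016149: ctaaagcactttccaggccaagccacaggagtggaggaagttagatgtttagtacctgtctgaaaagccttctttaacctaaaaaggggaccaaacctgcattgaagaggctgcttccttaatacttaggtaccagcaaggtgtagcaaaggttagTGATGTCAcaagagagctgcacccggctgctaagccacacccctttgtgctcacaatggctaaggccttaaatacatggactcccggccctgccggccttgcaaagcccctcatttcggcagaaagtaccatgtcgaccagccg
The match lies 60 bases before the start in Prm3, 64 in Prm1 and 94 in Tnp1, and these letters do not occur in the Tnp2 window. A match is a description of the letters and not a measured binding site. TGANNTCA occurred in 5 of the 14 nuclear packaging genes with a window, against 11.7% of all 8754 tested genes with one.

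The arrays detected similar numbers of probes at both stages. A probe counts as detected at a detection p under 0.05, and 35.9% to 40.7% of the 45281 probes were detected on round arrays against 34.9% to 36.9% on condensing arrays. Log2 levels correlated at 0.970 to 0.995 within round, 0.987 to 0.992 within condensing and 0.912 to 0.949 between stages. Round replicate 3 stood apart from its group, with 0.970 to 0.985 to the other round arrays and 0.989 to 0.995 among those. Without it 3209 genes were called higher and 3601 lower, of which 1136 and 729 reached 2-fold, close to the counts with it given next.

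The test called 64.2% of the 10759 genes, 3262 higher (30.3%) and 3641 lower (33.8%) in condensing spermatids. At least 2-fold were 1163 higher (10.8%) and 794 lower (7.38%), and the 6 round values lay wholly apart from the 6 condensing values in 43.2% of all genes. These shares are the background against which every list below is read. The balance of rises and falls depended on the scaling of the arrays. Rises made up 47.3% of the calls after quantile normalization, the main setting, 47.1% in the authors' deposited table, 54.2% after cyclic loess, 28.3% after scaling to the median of all probes and 66.9% after scaling to the median of probes detected on all arrays. The median of all genes was -0.03, -0.01, 0.05, -0.31 and 0.30 in the same order, so the median of a list described as mostly higher or lower is also given relative to it, as a range over the 5 scalings. All 1957 genes called at 2-fold or more kept their direction under the other 4 scalings.

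**Figure D1:**
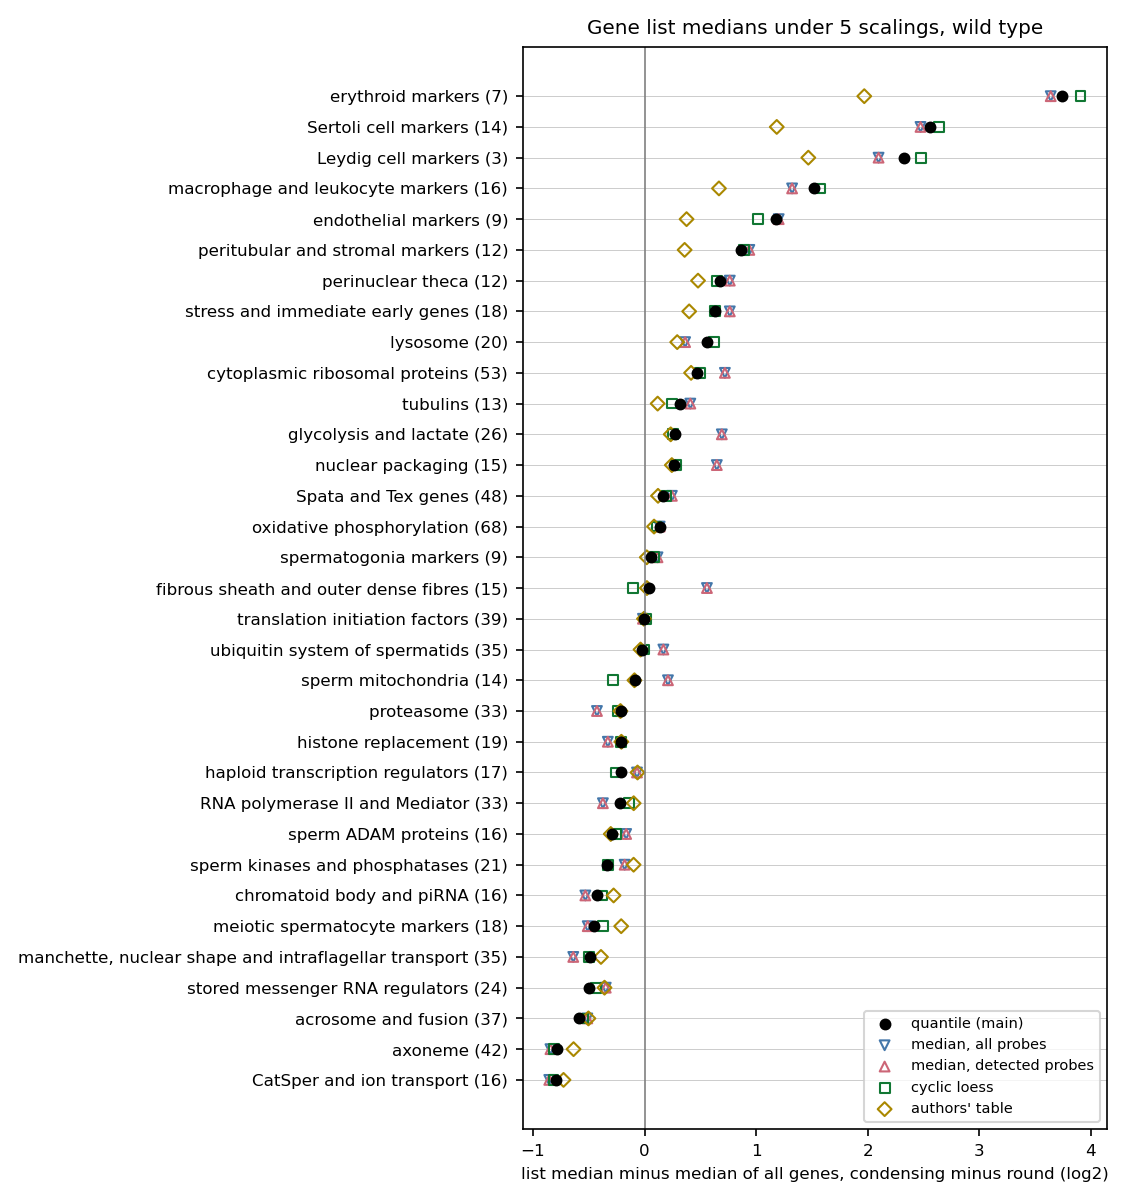
Median stage change of each gene list minus the median of all genes tested (x axis, log2, condensing minus round), with the number of genes tested in parentheses, under 5 ways of scaling the arrays. Markers of blood, Sertoli, Leydig and leukocyte cells were the 4 highest lists and axoneme and CatSper genes the lowest pair under all 5 scalings, and fibrous sheath, mitochondrial, ubiquitin and initiation factor lists changed side with the scaling.

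Most tested markers of other testicular and blood cells were higher in the condensing samples, and they are referred to below beside genes that such cells also express. The counts cover only markers whose probes were detected on at least 6 arrays of the series. These were 14 of the 22 Sertoli markers on the array, 7 of 9 erythroid, 3 of 8 Leydig and 16 of 20 leukocyte markers. For peritubular and stromal markers 12 of 17 were tested, and for endothelial markers 9 of 12. A marker undetected in round spermatids of either genotype can pass this filter only through condensing arrays, which favours rises in these counts. All 14 tested Sertoli cell markers rose (median 2.53), with Cst12, a cystatin, from 6.18, 6.79 and 6.92 (lowest, median and highest of 6 arrays) to 10.52, 10.64 and 10.75, and Dhh, the ligand Sertoli cells secrete, detected on 0 round and 6 condensing arrays and at least 4.07-fold higher. Cldn11, a Sertoli cell junction protein, rose by 3.43 ± 0.12 (SE here and below, n = 6 per group) and Rhox5, a Sertoli homeobox gene, by 3.31 ± 0.12. The summed level of the Sertoli list ran from 10.43 to 10.94 log2 on round and from 13.71 to 13.98 on condensing arrays. Of 7 erythroid markers 5 rose, and their summed level ran from 8.95 to 10.55 and from 15.62 to 15.90. The globins Hba-a1, Hbb-bt and Hbb-bs and Alas2, the first enzyme of erythroid heme synthesis, made up 4 of these rises, with the 3 globins above 13.8 log2 on every condensing array, close to the highest level of 15.2 on any array.

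Leydig cell markers rose in 2 of 3 (Insl3, a Leydig hormone, by 2.68 ± 0.22, and Cyp17a1, a steroid enzyme, by 2.30 ± 0.27), while Cyp11a1, not detected on any round array, did not pass (adjusted p = 0.0663) and was called higher only without round replicate 1 or condensing replicate 18 among the omissions of an array. The summed Leydig level ran from 7.97 to 9.45 on round and 11.14 to 11.60 on condensing arrays. Macrophage and leukocyte markers rose in 14 of 16 and fell in 0 (summed 12.40 to 13.03 and 13.49 to 13.88), led by the antigen presentation genes H2-Eb1 (2.95 ± 0.16) and Cd74 (2.86 ± 0.18). Peritubular and stromal markers rose in 10 of 12 and fell in 0 (summed 13.32 to 13.74 and 13.96 to 14.13), led by Myl9, a smooth muscle myosin light chain (2.81 ± 0.14), and Sparc, a matrix protein (2.55 ± 0.14). Of 9 endothelial markers 7 rose and 0 fell (summed 9.16 to 9.35 and 10.52 to 10.79), led by the junction protein Cldn5 (1.73 ± 0.17) and the secreted factor Egfl7 (1.67 ± 0.13). None of these 6 summed levels overlapped between the stages, and the list medians lay 0.36 to 3.91 above that of all genes under the 5 scalings. In bulk samples, fewer cells of a type and less RNA per cell cannot be told apart.

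**Figure D2:**
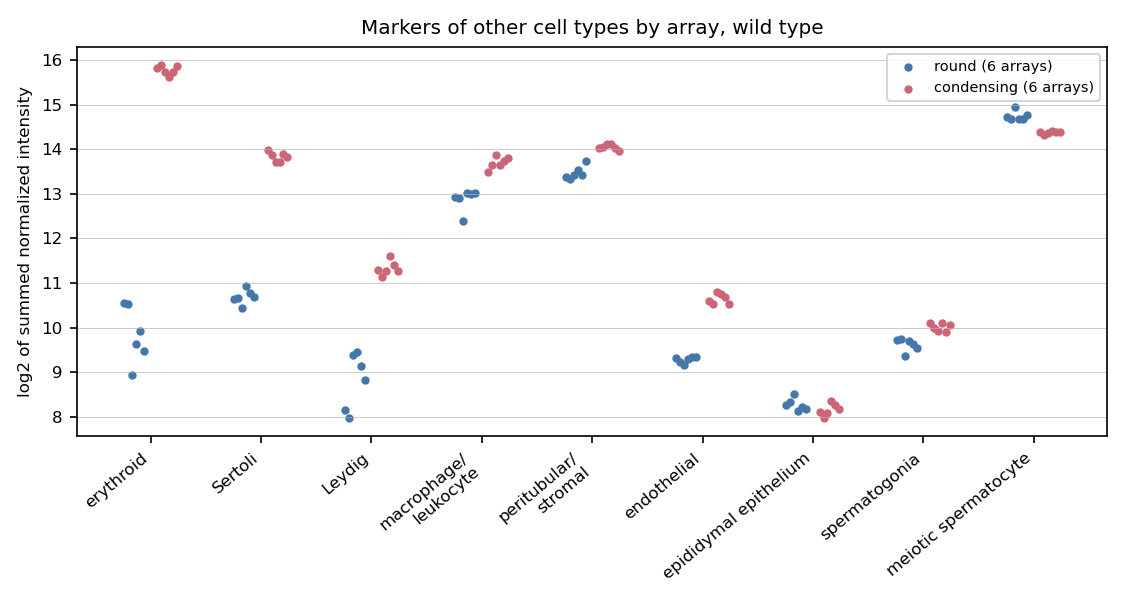
Log2 of the summed normalized intensity of the markers of each cell type (y axis) on each of the 6 round and 6 condensing wild-type arrays (points). The 6 lists of somatic and blood cells are higher on every condensing than on every round array, epididymal markers overlap, spermatogonial markers are higher on every condensing array and meiotic markers lower.

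Markers of germ cells before the spermatid stage went both ways. Under the main scaling, the summed level of meiotic markers was lower and that of spermatogonia markers higher on every condensing array. Of 18 meiotic spermatocyte markers 3 rose and 10 fell (median -0.48, against -0.03 for all genes). Ccna1, the meiotic cyclin A1, fell from 12.10, 12.15 and 12.30 to 10.46, 10.68 and 10.90, and Rec8, a meiotic cohesin, fell by 1.18 ± 0.11. The synaptonemal complex genes Syce2 and Sycp1 went the other way, by 2.38 ± 0.18 and 1.08 ± 0.25, the latter not called under all-probe median scaling (0.55). Of 9 spermatogonia markers 2 rose and 1 fell (median 0.03): Uchl1, a ubiquitin hydrolase, rose by 1.25 ± 0.14 and the transcription factor Sohlh1 by 0.62 ± 0.16, while Kit, the stem cell factor receptor, fell by 0.94 ± 0.14. Sohlh1 ran down to 0.03 over 23 other settings and lost its call in 1. Under all-probe median scaling the spermatogonia list held 1 rise and 2 falls (median -0.19). Summed levels ran from 14.67 to 14.95 on round and 14.31 to 14.42 on condensing arrays for meiotic markers, and from 9.37 to 9.75 and 9.89 to 10.12 for spermatogonia markers. Only 2 of the 10 epididymal markers on the array passed the detection filter, Defb15 at 0.85 ± 0.15 and Cuzd1 at -1.17 ± 0.18.

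The nuclear packaging genes split. Of 15 tested, 7 rose and 5 fell (median 0.23). Prm3, a small acidic protein encoded within the protamine cluster, went from 11.29, 11.70 and 12.68 on round arrays to 13.37, 13.54 and 13.63 on condensing arrays, a rise of 1.61 ± 0.27 (3.04-fold, adjusted p = 6.96e-06). Its round values were uneven, with replicates 1 and 2 at 12.59 and 12.68 and the other 4 between 11.29 and 11.81, yet all 6 stayed below the condensing values. Tnp2, the transition protein next to it, rose by 0.96 ± 0.15 (adjusted p = 3.16e-06), from 11.15, 11.24 and 11.30 to 11.84, 12.25 and 12.39. H2al2a, a histone variant that opens nucleosomes for transition proteins, rose by 1.65 ± 0.19 (3.14-fold, adjusted p = 2.5e-08), from 10.74, 11.10 and 11.66 to 12.63, 12.87 and 12.96. H2bl1, its H2B counterpart, rose by 0.91 ± 0.14 and H1f7, the spermatid linker histone H1T2, by 0.72 ± 0.10, both without overlap of the stages.

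The brightest packaging messages moved little. Tnp1 had 14.35, 14.48 and 14.64 on round arrays against 14.33, 14.45 and 14.54 on condensing arrays (-0.04, with a 95% interval of 0.19 to either side). Prm1 had 14.76, 14.88 and 15.07 against 14.47, 14.65 and 14.83. That fall of 0.23 ± 0.10 (adjusted p = 0.0373) was lost in 8 of the 12 omissions of an array (adjusted p up to 0.0966), round replicate 3 among them. Hils1, a spermatid linker histone, did not pass (0.23 ± 0.11, adjusted p = 0.0624) and passed without round replicate 1 (0.27). Tnp1 and Prm1 lie within 1 log2 unit of the highest level on any array, where the scaling decides the sign: scaling to the median of detected probes gave 0.90 for Tnp1 and 0.61 for Prm1, and scaling to the median of all probes gave 0.29 and 0.00. No probe carried the name Prm2 here.

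Histones of the earlier chromatin moved in both directions. H3f3a and H3f3b encode the same replacement histone H3.3 from different genes. H3f3a fell by 0.69 ± 0.14, from 11.78, 12.46 and 12.65 to 11.56, 11.65 and 11.91, while H3f3b rose by 1.39 ± 0.14, from 8.47, 9.28 and 9.55 to 10.41, 10.52 and 10.64. The H3f3b values did not overlap between the stages, and the H3f3a values overlapped through round replicate 3 at 11.78. H2az1, the variant H2A.Z, fell by 0.60 ± 0.16 and H2ax, the DNA damage variant, by 0.45 ± 0.16, the latter not called without round replicate 1 (-0.35, adjusted p = 0.0628). Over 23 other settings H2ax lost its call in 2, that omission among them. H3f3a and H2az1 each lost theirs in 1, not an omission of an array, with values up to -0.23 and -0.29. H1f6, the testis linker histone H1t, was detected on 4 round and 0 condensing arrays and was at least 1.04-fold lower (adjusted p = 0.000588), a call not made when scaled to detected probes. H1f10, a widely expressed linker histone, rose by 0.93 ± 0.18 (0.34 and not called under all-probe median scaling), beside the somatic markers, whose part in this and in the H3f3b rise was not tested. H2ac1, the testis histone H2A, stood at -0.23 ± 0.17 and was detected on 4 round and 2 condensing arrays.

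**Figure D3:**
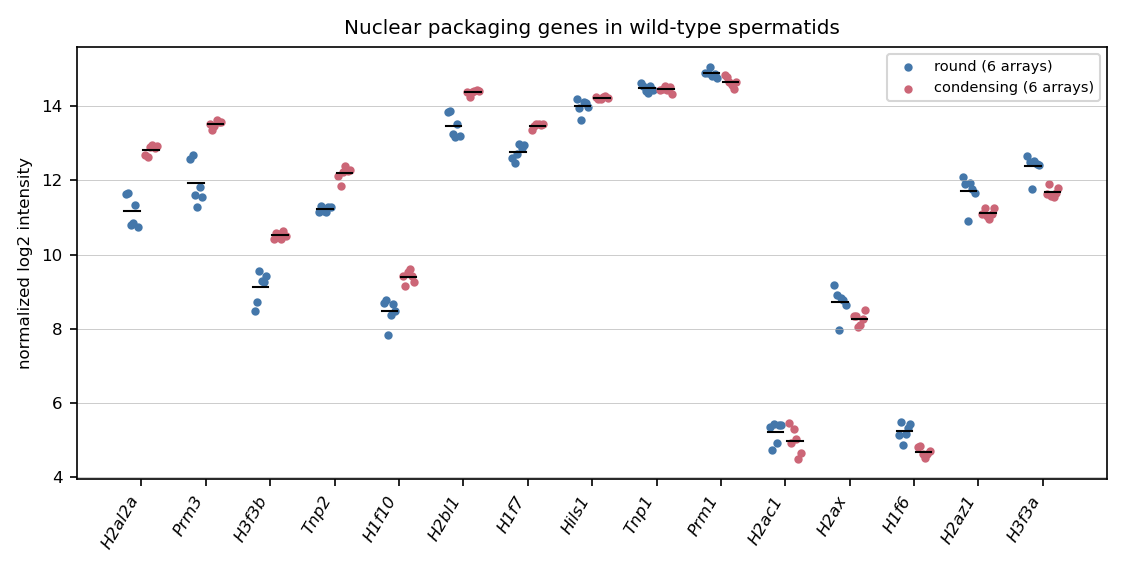
Normalized log2 intensity (y axis) of the 15 nuclear packaging genes on the 6 round and 6 condensing wild-type arrays (points), with the group mean as a bar, ordered by the stage change. H2al2a, Prm3 and H3f3b rose most, Tnp1 and Prm1 sit near the top of the scale at both stages, and H3f3a and H2az1 fell.

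Enzymes and readers that act when histones leave fell more often than they rose. Of 19 histone replacement genes 4 rose, 9 fell and 6 were not called (median -0.24, and 0.21 to 0.33 below that of all genes). Scaling to detected probes turned these counts to 8 rises and 6 falls (median -0.026). Dot1l, the methyltransferase of histone H3 lysine 79, fell from 10.31, 10.52 and 11.24 to 9.03, 9.44 and 9.66 (-1.22 ± 0.16), and Nutm1, a testis partner of p300, from 8.07, 8.21 and 8.46 to 6.81, 6.94 and 7.24 (-1.25 ± 0.11). Camk4, a kinase reported to phosphorylate protamine 2, rose by 1.86 ± 0.12 from 6.43, 6.73 and 6.92 to 8.27, 8.50 and 8.98. Ctcfl, the testis paralogue of CTCF, rose by 1.75 ± 0.15 and was detected on 3 of 6 round arrays and on all condensing arrays. Brdt, the bromodomain protein that binds acetylated histones in spermatids, did not pass on its brightest probe (-0.24 ± 0.12, adjusted p = 0.0877). A second probe, detected on every array of both stages, was called lower at -0.95, so the size of the Brdt change rests on the probe. Brdt was also called lower with all-probe median scaling (-0.47), averaged over its probes (-0.60) or with the wild-type arrays alone (-0.25), and scaling to detected probes gave 0.14.

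Regulators of haploid transcription also fell more often than they rose under the main scaling. Of 17, 8 fell and 2 rose (median -0.24, and 0.063 to 0.25 below that of all genes), whereas scaling to detected probes gave 8 rises and 6 falls (median 0.24). Crem, the activator of haploid genes, fell from 12.32, 12.53 and 12.76 to 11.47, 11.67 and 11.86 (-0.88 ± 0.10), and its 4 other probes gave -0.76 to -0.20. Crebbp, which encodes CBP, fell from 7.15, 7.22 and 7.73 to 5.53, 5.79 and 6.14, and Ep300, which encodes p300, from 7.62, 7.81 and 8.67 to 6.18, 6.67 and 6.85, with a second Ep300 probe at -0.57. The rises were Spz1, a testis zipper factor (0.76 ± 0.17), and Kif17, a kinesin that carries a CREM coactivator in spermatids (0.95 ± 0.09). Other Kif17 probes gave -2.28 and 0.84 and their mean -0.17, so its direction rests on the probe. The RNA polymerase II and Mediator list held 9 rises and 11 falls among 33 (median -0.25), with 16 falls without round replicate 3 and 20 under all-probe median scaling. Med20, a Mediator head subunit, rose from 7.03, 7.28 and 8.02 to 9.53, 9.86 and 9.98, with a second probe at 0.05, and Polr2l, a small polymerase subunit, rose by 1.60 ± 0.24. Med26 fell by 1.26 ± 0.17 and Med24 by 0.88 ± 0.14.

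Most of the perinuclear theca genes rose. The theca is the dense protein shell between the acrosome and the nucleus that also carries the factor that activates the egg. Of 12 tested genes 8 rose and 1 fell (median 0.65, and 0.48 to 0.76 above the median of all genes under the 5 scalings), against 30.3% and 33.8% over all genes. In the knockdown 5 of these 8 were also called higher, against 2836 of 3262 rises over all genes, and the list median was 0.32. Without wild-type round replicates 1 and 2 there were 7 rises (median 0.44). Actl9, an actin-like theca protein, rose from 8.84, 9.31 and 9.45 to 10.46, 10.79 and 11.17 (1.53 ± 0.12, adjusted p = 2.46e-11). Fscn3, a testis fascin, rose from 10.44, 10.80 and 11.14 to 11.89, 12.30 and 12.51 (1.51 ± 0.13, adjusted p = 1.17e-10), and Actrt1, an actin-related theca protein, from 10.03, 10.41 and 10.67 to 11.31, 11.49 and 11.67 (1.10 ± 0.13). None of these 3 genes had overlapping stages.

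The other theca members showed smaller shifts. Wbp2nl, known as PAWP, rose by 0.77 ± 0.12, Ccin, the basic protein calicin, by 0.63 ± 0.10 and Actrt2 by 0.34 ± 0.09. Plcz1, the phospholipase that starts calcium waves in the egg, rose by 0.69 ± 0.20, with round replicate 3 at 12.72 inside the condensing range of 12.45 to 12.79. Cylc2, the basic protein cylicin, was dim and rose by 0.67 ± 0.25, and this call did not survive the omission of any of 3 arrays, round replicate 2 (0.48) and condensing replicates 15 (0.57) or 16 (0.53). Ccin and Cylc2 were also not called under all-probe median scaling (0.21 and 0.32). Gsto2, Capza3 and Actl7a stood at 0.17, 0.08 and 0.01, each with a 95% interval of 0.18 to 0.22 to either side. Actl7b, an actin-like protein, fell by 0.64 ± 0.10 on its brighter probe and stood at 0.63 on another.

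The letters TGANNTCA occurred in 6 of the 8 theca promoters with a window, the highest share of the 34 lists, whose shares otherwise ran from 0% to 42.4%. Stretches of 60 bases around the first match are given 5′ to 3′ on the strand of the gene (GRCm38.p6) with matches in capitals, in the order of the stage change.
Actl9, chr17:33432769-33432828, plus strand: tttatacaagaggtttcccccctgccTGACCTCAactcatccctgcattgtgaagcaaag
Actrt1, chrX:46328765-46328824, plus strand: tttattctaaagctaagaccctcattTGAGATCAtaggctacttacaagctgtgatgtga
Ccin, chr4:43983411-43983470, plus strand: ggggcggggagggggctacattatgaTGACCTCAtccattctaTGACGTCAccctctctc
Gsto2, chr19:47865448-47865507, plus strand: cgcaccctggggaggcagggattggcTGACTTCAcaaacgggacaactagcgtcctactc
Actl7a, chr4:56743356-56743415, plus strand: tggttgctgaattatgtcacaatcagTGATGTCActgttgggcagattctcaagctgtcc
Actl7b, chr4:56741428-56741487, minus strand: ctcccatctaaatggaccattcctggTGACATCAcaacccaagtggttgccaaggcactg
The first match lay 36 to 216 bases before the start. Actl9, Actrt1 and Ccin, called higher, and Gsto2 and Actl7a, not called, carried a match alike, as did Actl7b, whose brighter probe fell, and none was found in the windows of Fscn3 and Actrt2, called higher. The windows of Actl9, Actrt1 and Ccin each held 2 matches. The second of Ccin is the full TGACGTCA, and the second of Actl9 and of Actrt1 lies outside the printed stretch. Over all genes with a window these letters occurred in 12.6% of those called at least 2-fold higher and 15.9% of those called at least 2-fold lower.

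Acrosome genes were mostly lower. Of 37 acrosome and fusion genes 23 fell and 5 rose (median -0.62, and 0.50 to 0.59 below that of all genes under the 5 scalings). In the knockdown 22 of the 23 falls were also called, against 3130 of the 3641 falls over all genes. TGANNTCA occurred in 14 of the 33 with a promoter window. Acr, the protease acrosin, fell from 11.99, 12.13 and 12.23 to 10.79, 10.95 and 11.06 (-1.17 ± 0.10). Zpbp, a zona pellucida binding protein of the acrosomal matrix, fell from 12.70, 13.36 and 13.45 to 11.76, 11.96 and 12.17 (-1.32 ± 0.12), and Izumo4, a member of the IZUMO family of sperm proteins, fell by 1.28 ± 0.17. The largest rises were Prss37, a protease-like protein needed for sperm to enter the oviduct in mice (6.97, 7.13 and 7.70 to 8.39, 8.96 and 9.39), and Crisp2, a cysteine-rich secretory protein of the acrosome and tail (1.41 ± 0.25, with overlapping stages). Of 16 ADAM proteins, membrane proteins of the sperm surface, 8 fell and 4 rose (median -0.32, but 0.14 with 6 falls and 6 rises when scaled to detected probes). Adam1b fell by 1.46 ± 0.13 and Adam26b by 0.90 ± 0.20, while Adam21 rose by 0.91 ± 0.18 and Adam6a by 0.77 ± 0.18 (0.21 and not called under all-probe median scaling). In Adam21, Adam6a and Adam26b, round replicate 3 was far above its group, at 11.08, 10.12 and 9.53.

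Most of the axoneme genes fell. The axoneme is the microtubule core of the tail with its dynein motors and radial spokes. Of 42 tested genes 35 fell and 3 rose (median -0.82, and 0.64 to 0.84 below that of all genes under the 5 scalings). All 35 were also called lower in the knockdown, as were 3130 of the 3641 falls over all genes. Dnaic2, a dynein intermediate chain, fell from 7.64, 7.83 and 8.33 to 5.76, 5.93 and 6.31 (-1.92 ± 0.14, 3.77-fold), and Iqca, an IQ motif protein of cilia and flagella, from 10.01, 10.10 and 10.36 to 8.45, 8.56 and 8.72 (-1.55 ± 0.09). The exceptions included Efcab1, the calcium sensor calaxin of outer dynein arms, which rose from 7.99, 8.72 and 8.88 to 10.35, 10.48 and 10.66 (1.85 ± 0.13), and Tekt5, a tektin, at 0.75 ± 0.10 (0.19 and not called under all-probe median scaling). TGANNTCA occurred in 2 of the 35 axoneme promoters with a window.

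Genes of the transport system and of nuclear shaping were mostly lower as well. Of 35 genes of the manchette, nuclear shape and intraflagellar transport 22 fell and 4 rose (median -0.52, and 0.39 to 0.64 below that of all genes). Lmnb2, a B-type lamin, fell from 7.59, 8.02 and 8.20 to 5.52, 6.15 and 6.37 (-1.91 ± 0.14), and Rabl2, a GTPase of flagellar transport, fell by 1.55 ± 0.09 on its brighter probe, with a second probe at 0.61. Map7, a microtubule-binding protein of the manchette, rose by 1.10 ± 0.12 (0.32 and 0.47 on other probes) and Hook1, a manchette linker, by 0.86 ± 0.18. Of 16 genes of the CatSper calcium channel and other sperm ion transport 12 fell and 1 rose (median -0.83, and 0.73 to 0.86 below that of all genes). Catsper2, a pore subunit, fell from 13.25, 13.41 and 14.02 to 11.87, 12.03 and 12.34, and Pkdrej, a polycystin family receptor, from 8.55, 8.77 and 9.26 to 6.81, 7.05 and 7.55. The rise was Ttyh1, a chloride channel family member that somatic cells also express, at 2.32 ± 0.14 with a second probe at 0.30.

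**Figure D4:**
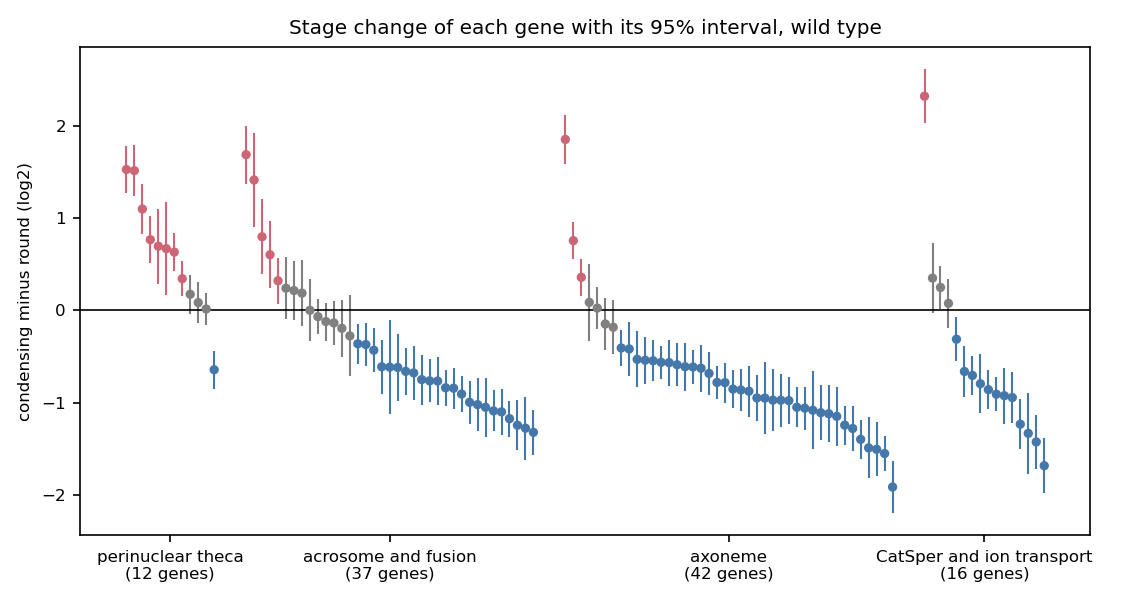
Stage change of each gene (y axis, log2, condensing minus round) with its 95% interval as a bar for 4 lists, ordered by size within a list. Red marks genes called higher, blue genes called lower and grey genes not called: 8 of 12 theca genes are red, while 23 of 37 acrosome, 35 of 42 axoneme and 12 of 16 CatSper and ion transport genes are blue.

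Accessory structures of the tail did not share one direction. Of 15 fibrous sheath and outer dense fibre genes 6 rose and 4 fell (median 0.01, with the sign relative to all genes depending on the scaling). Odf3b rose from 10.80, 11.48 and 11.56 to 12.61, 12.80 and 12.89 (1.42 ± 0.15), and Ropn1, a ropporin of the fibrous sheath, by 1.14 ± 0.23. Gapdhs, the sheath-bound form of the glycolytic enzyme, rose by 0.58 ± 0.09 and Tcp11 by 0.52 ± 0.10. Akap4, the main sheath protein, rose by 0.47 ± 0.18, not called without round replicate 1 (0.40) or 2 (0.37). The rise of Cabyr, a calcium-binding sheath protein (0.24), was lost in 8 of 12 omissions of an array, and the fall of Odf4 (-0.21) in 11 of 12. Odf1, Odf2, Oaz3, Akap3 and Odf3 stood between -0.23 and 0.09, and all but Oaz3 and Odf2 changed sign when scaled to detected probes (0.52 to 0.68). The probes of Odf2 disagreed: of the 5 others, 1 rose by 1.24 and 2 were detected on 6 round and 0 condensing arrays. Akap3 was called lower without round replicate 2 (-0.26) and Odf3 without round replicates 2 (-0.25) or 3 (-0.27) or condensing replicate 15 (-0.25). Fsip1 fell by 1.43 ± 0.13, Ccdc38 by 1.33 ± 0.23 and Septin12, a ring septin of the annulus, by 0.78 ± 0.14.

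Genes of the sperm mitochondria were spread as well, with 4 rises and 5 falls among 14 (median -0.12, with the sign relative to all genes depending on the scaling). Spata18, known as Mieap, rose by 0.84 ± 0.13 and Armc12, a protein of the mitochondrial sheath, by 0.73 ± 0.10. Smcp, the cysteine-rich protein of the sheath, rose by 0.28 ± 0.10 (0.11 and not called under cyclic loess) and Prdx4, a peroxiredoxin, by 0.30 ± 0.11 (0.23 and adjusted p = 0.0510 without round replicate 3). The outer membrane channels Vdac3 and Vdac2 fell by 0.98 ± 0.14 and 0.86 ± 0.12, from 12.29, 12.42 and 12.70 to 11.33, 11.38 and 11.81 for Vdac3. The testis forms Cox6b2 and Cox8c of cytochrome oxidase fell by 0.58 ± 0.12 and 0.54 ± 0.17, and Gk2, a testis glycerol kinase, by 0.54 ± 0.18, with 0.31 for Cox8c when scaled to detected probes. Gpx4, the selenoprotein of the sheath, and Spata19 stood at -0.00 and 0.09, with 95% intervals of 0.19 to either side, and other Gpx4 probes were called higher at up to 0.69. Fam162a stood at -0.42 ± 0.22, called lower without round replicate 3 (-0.60), and Gpat2 at -0.23 ± 0.11, called lower without round replicate 1 (-0.27).

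Tubulin genes changed in both directions. Of 13 tested, 6 rose and 5 fell, and the same 6 and 5 were called in the knockdown. Over all genes this held for 2836 of 3262 rises and 3130 of 3641 falls. The testis alpha tubulins Tuba3a and Tuba3b, near-identical copies that a probe may share, fell by 1.27 ± 0.09 and 1.34 ± 0.10, Tuba3a from 13.99, 14.09 and 14.25 to 12.66, 12.83 and 12.97. Tuba8, another alpha tubulin, rose from 10.50, 10.98 and 11.17 to 11.82, 12.06 and 12.30 (1.13 ± 0.12). Tuba1b rose by 0.98 ± 0.09 and Tuba1a from 6.96, 7.21 and 7.38 to 9.11, 9.32 and 9.60 (2.16 ± 0.12). Among beta tubulins, Tubb5, a widely expressed form, rose from 7.82, 7.94 and 8.17 to 10.15, 10.36 and 10.53 (2.39 ± 0.11, 5.25-fold), and Tubb4b, the brightest, fell by 0.45 ± 0.09, a sign that turned to 0.47 when scaled to detected probes.

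Smaller tubulin shifts completed the family. Tubg1, the gamma tubulin that nucleates microtubules, rose by 1.04 ± 0.11, and Tubb2b by 0.68 ± 0.12 (0.10 and not called under all-probe median scaling). Other Tubb2b probes gave 0.59 and -0.11. Tubd1, delta tubulin, fell by 0.68 ± 0.12 and Tubal3, an alpha tubulin-like gene, by 1.12 ± 0.13. A second Tubd1 probe gave -0.20 and was not called. Tubb4a and Tubb6 stood at 0.29 and 0.11 and did not pass, and Tubb6 was at -0.42 under all-probe median scaling. The list median was 0.29 but the summed level fell, from 15.76 to 15.92 on round to 15.30 to 15.47 on condensing arrays, since the brightest members fell. Tubb5, Tuba1a and Tubb2b are also expressed in somatic cells, whose markers rose in these samples, and their part in these rises was not tested.

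**Figure D5:**
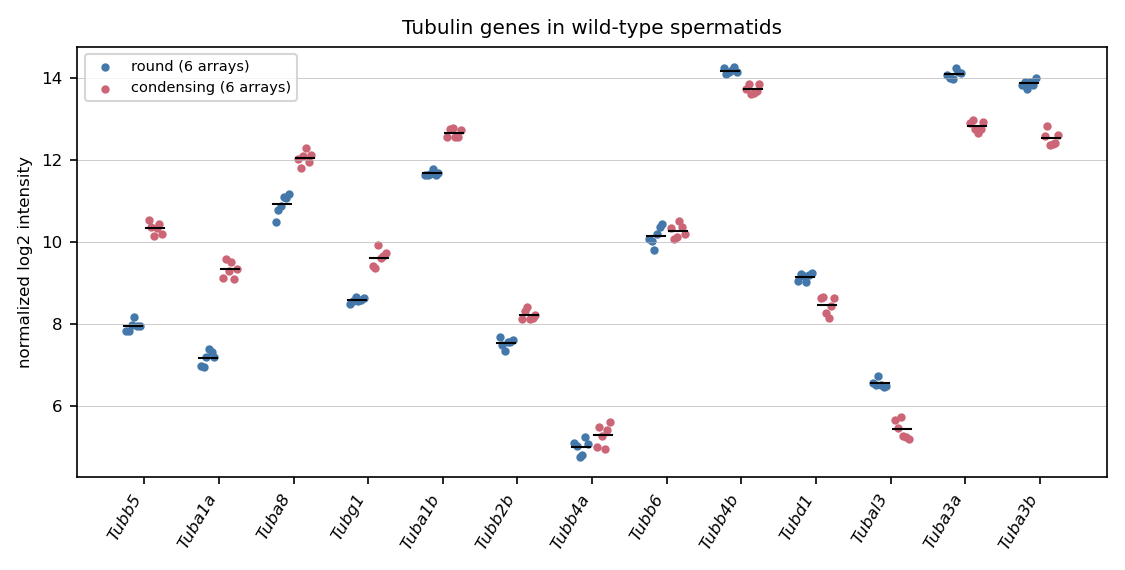
Normalized log2 intensity (y axis) of the 13 tubulin genes on the 6 round and 6 condensing wild-type arrays (points), with the group mean as a bar. Tubb5 and Tuba1a rose by more than 2 log2 units from low levels, while Tuba3a, Tuba3b and Tubb4b fell from levels near 14.

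The phosphofructokinases moved apart, while both forms of glyceraldehyde phosphate dehydrogenase rose. Of 26 genes of glycolysis and lactate handling 14 rose and 7 fell (median 0.25, and 0.23 to 0.69 above that of all genes). Of the phosphofructokinases, Pfkl, the liver form, rose from 4.61, 4.84 and 5.30, detected on 2 of 6 round arrays, to 7.65, 7.80 and 8.11 (2.92 ± 0.16), and its second probe gave 0.61. Pfkp, the platelet form, fell from 8.31, 8.60 and 9.21 to 6.65, 7.01 and 7.35 (-1.65 ± 0.16). Gapdh, the somatic form, rose from 7.33, 7.73 and 7.94 to 9.36, 9.40 and 9.45 (1.73 ± 0.10), and the sperm form Gapdhs stood at 13.86, 13.91 and 13.99 in round and 14.39, 14.53 and 14.59 in condensing spermatids. Slc2a8, a glucose transporter, fell by 1.18 ± 0.13. Pgk2, the testis phosphoglycerate kinase, rose by 0.24 ± 0.10, but leaving out an array lost this call in 7 of 12 cases. Ldhc, the testis lactate dehydrogenase, stood at 0.01 on its brightest probe (95% interval 0.17 to either side). Its other probes were called lower at -0.30 and -0.44, and the mean over its probes was -0.25. Somatic and blood cells also express Pfkl and Gapdh, and the part of their markers in these rises was not tested.

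Of 21 sperm kinase and phosphatase genes 11 fell and 6 rose (median -0.36, but 0.12 with 8 falls and 9 rises when scaled to detected probes). The summed level went the other way from the median: it ran from 16.83 to 16.89 on round arrays and was higher on every condensing array, up to 17.11. Prkar2a, a regulatory subunit of protein kinase A anchored in the sperm tail, rose from 6.63, 7.25 and 7.77 to 9.33, 9.70 and 9.95 (2.39 ± 0.22, 5.23-fold), and Prkar1a, another regulatory subunit, by 1.35 ± 0.14, with a second probe at -0.47. Tssk5, a testis-specific kinase, was detected on 6 round and 0 condensing arrays and was at least 2.72-fold lower. Ppp1cc, the phosphatase whose testis splice form is needed for sperm in mice, fell by 1.24 ± 0.11, with a second probe at 0.29.

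Genes that hold and repress stored messages were mostly lower. Of 24, 13 fell and 2 rose (median -0.53, and 0.35 to 0.50 below that of all genes). Pabpc2, a poly(A)-binding protein of germ cells, fell from 13.85, 13.97 and 14.45 to 12.62, 12.75 and 12.91 (-1.27 ± 0.13), Pabpc1 by 0.96 ± 0.17 and Pum2, a Pumilio repressor, by 1.06 ± 0.11. Ybx2, the germ cell Y-box protein that binds stored protamine messages, stood at 13.90, 14.12 and 14.17 in round and 13.91, 14.07 and 14.15 in condensing spermatids (-0.03, 95% interval 0.17 to either side, but 0.26 and 0.87 under the median scalings). Elavl1, an RNA stabiliser, rose by 0.99 ± 0.14 with a second probe at -0.97 and a mean of 0.01, and Fxr1 rose by 0.64 ± 0.20. Of 16 genes of the chromatoid body, the RNA granule of round spermatids, and the piRNA pathway 9 fell and 3 rose (median -0.46). Ddx4, the helicase MVH that marks the granule, fell from 9.46, 9.64 and 10.79 to 8.04, 8.23 and 8.61, and Tdrd7, a Tudor protein, from 13.37, 13.52 and 14.02 to 11.94, 12.14 and 12.44. Piwil1, the PIWI protein MIWI, went the other way, from 10.39, 10.66 and 10.77 to 11.11, 11.25 and 11.51 (0.64 ± 0.12, but 0.27 and not called under all-probe median scaling), as did Tdrd5 (1.07 ± 0.15).

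Translation genes rose in part. Of 53 cytoplasmic ribosomal protein genes 29 rose and 3 fell (median 0.44, and 0.42 to 0.72 above that of all genes). Round replicates 1 and 2 stood apart: their summed levels of 18.42 and 18.39 lay above every condensing array (18.22 to 18.34), with the other round arrays at 17.76 to 18.04. Without these 2 arrays 37 rose and 1 fell (median 0.68), and without round replicate 3 23 rose and 3 fell (median 0.35). Rpl39 rose from 6.97, 7.22 and 7.93 to 9.44, 9.57 and 9.66 and Rps4x, an X-linked subunit, from 6.28, 6.78 and 7.00 to 8.58, 8.76 and 9.12. Rpl23 fell by 1.02 ± 0.09 on its brightest probe, with 0.26 and 0.37 on others, and Rps9 by 0.43 ± 0.14, with 0.07 on another. Ribosomal protein genes have many processed copies, so a probe can share signal, and every cell type whose markers rose here expresses them. Their part was not tested. Of 39 initiation factor genes 11 rose and 7 fell (median -0.04), with 7 rises and 20 falls under all-probe median scaling and 20 and 5 when scaled to detected probes. Eif4e3, a cap-binding paralogue, rose by 1.59 ± 0.19 (0.39 on a second probe) and Eif3k by 1.11 ± 0.15, while Eif3d fell by 0.89 ± 0.12 and Eif4a3, a core of the exon junction complex, by 0.78 ± 0.10. Of 68 oxidative phosphorylation genes 21 rose and 12 fell (median 0.10), turned to 12 rises and 23 falls by all-probe median scaling (median -0.17). Here too round replicates 1 and 2, both at 17.72, summed above every condensing array (17.24 to 17.41), and without them 27 rose and 10 fell. The largest rises were Ndufa1 and Ndufa4 at 1.49 ± 0.26 and 1.46 ± 0.20. Uqcrfs1, the Rieske protein of complex III, was detected on 6 round and 0 condensing arrays and was at least 1.93-fold lower, and Atp5j fell by 1.10 ± 0.16 with a second probe at 0.52.

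Protein turnover genes were mixed. Of 35 ubiquitin system genes of spermatids 11 rose and 14 fell (median -0.05), and 20 and 11 did so when scaled to detected probes. Ubl4b, a testis ubiquitin-like protein, rose from 10.85, 11.25 and 11.39 to 12.47, 12.68 and 12.79 (1.44 ± 0.11), and Rad23b, a ubiquitin receptor, by 0.88 ± 0.10 (1.16 and 0.10 on other probes). Usp8, a deubiquitinase of the acrosomal system, fell by 1.55 ± 0.20 and Usp42 by 1.22 ± 0.16. Of 33 proteasome genes 6 rose and 16 fell (median -0.24, but 10 and 10 when scaled to detected probes), with Psmc3, a base ATPase, at -0.97 ± 0.10 and Psmb6, a catalytic-ring subunit, at -0.79 ± 0.16. The proteasome rises were led by Psma7 (1.54 ± 0.20) and Psmb10, a subunit of the immunoproteasome of leukocytes (1.21 ± 0.20), beside the leukocyte markers.

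Of 48 Spata and Tex genes, named for their expression in testis, 19 rose and 15 fell (median 0.14), and 16 and 19 did so under all-probe median scaling (median -0.065). Tex46 rose from 10.19, 10.79 and 11.26 to 12.51, 12.62 and 12.71 and Tex44 from 9.40, 9.54 and 9.68 to 11.07, 11.17 and 11.28. Tex24 fell by 1.38 ± 0.13 and Spata17 by 1.33 ± 0.13, the latter with a second probe at 0.53. Of 18 stress and immediate early genes 13 rose and 4 fell (median 0.60, and 0.40 to 0.77 above that of all genes), yet their summed level was lower on every condensing array (13.44 to 13.61) than on every round array (13.65 to 14.17). Fos rose by 2.34 ± 0.16 and the small heat shock protein Hspb1 by 2.09 ± 0.19, while Dnajb1, a co-chaperone with a high level in round spermatids (12.53, 12.74 and 13.13), fell by 1.05 ± 0.11 and Klf2 by 1.03 ± 0.13. Of 20 lysosome genes 11 rose and 4 fell (median 0.53), but 7 rose and 7 fell under all-probe median scaling (median 0.054), and their summed level was lower too, at 13.37 to 13.47 on condensing and 13.58 to 14.04 on round arrays. They included the saposin precursor Psap at 1.72 ± 0.15 and the protease Lgmn at 1.34 ± 0.12, against Arsa, arylsulfatase A, at -0.94 ± 0.13 and Cd63 at -0.83 ± 0.17. Other Cd63 probes gave -0.27 and -0.11 and were not called. The part of the leukocyte and Sertoli markers in these 2 lists was not tested.

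The largest changes among genes detected on all 12 arrays were rises. Behind the globins and Cst12 came secreted proteins of the defensin and WAP families: Defb19 rose from 8.35, 8.60 and 9.36 to 12.17, 12.66 and 12.85 (3.77 ± 0.25), Wfdc10 by 3.53 ± 0.19, Defb36 by 3.53 ± 0.22 and Defb45 by 3.51 ± 0.19. The globins and Cst12 are in the marker lists of blood and Sertoli cells. The part of such cells in the defensin and WAP rises was not tested. None of the 8 largest falls reached the size of these rises. They were Speer4e (-2.27 ± 0.19), Speer4a (-2.19 ± 0.10) and Speer4d (-2.15 ± 0.18) of a multicopy testis family whose members can share a probe, Xntrpc (-2.25 ± 0.15), Adh7, a retinol-oxidising alcohol dehydrogenase (-2.18 ± 0.13), Ly6m (-2.13 ± 0.17), Dido1, a PHD finger protein (-2.12 ± 0.13, with other probes from -1.74 to 0.46), and Ovgp1, an oviductin (-2.11 ± 0.17, with another probe at -0.79). Adh7 ran from 9.97 to 10.52 on round and from 7.88 to 8.21 on condensing arrays, and Speer4a went from 9.87, 9.92 and 10.10 to 7.54, 7.80 and 7.92, with stages far apart.

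Some genes crossed the detection limit. Detection is set within an array and does not depend on the scaling between arrays. By its brightest probe, a gene was detected on all 6 condensing and 0 round arrays in 70 cases (0.651% of 10759). The reverse, all 6 round and 0 condensing arrays, held for 102 (0.948%). Counting a gene as detected by any of its kept probes gave 64 and 97. Folds against an undetected group are lower bounds, set by the dimmest probes detected on each array. The brightest condensing-only genes were Olig1, a basic helix-loop-helix factor (at least 5.76-fold), Wipf3, a regulator of actin (at least 5.02-fold), Wfdc6b (at least 4.86-fold, with another probe at 0.41), the chemokine Ccl4 (at least 4.83-fold), Dhh and Mxra7 (at least 3.90-fold). Dhh is in the Sertoli marker list, and the part of somatic and blood cells in the others was not tested. The brightest genes with a round-only brightest probe were Bbc3, the apoptosis activator PUMA (at least 4.01-fold, with other probes at -0.16 and -0.07), Tshb, the beta chain of thyrotropin (at least 3.94-fold), Rap1gap2 (at least 2.89-fold, another probe at 0.00), Bcl2l15 (at least 2.74-fold), Tssk5 and Cars, a cysteinyl-tRNA synthetase (at least 2.59-fold). The other probes of Bbc3 were detected on 5 and 1 condensing arrays and that of Rap1gap2 on 3, so these genes were not round-only by every probe.

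Sex chromosomes and the mitochondrial genome differed from the autosomes in these counts. The X chromosome is silenced in meiosis and stays largely repressed in round spermatids, with many testis-specific genes expressed. Of 342 X-linked genes 44.4% rose and 26.9% fell (median 0.19), against 29.9% and 34.0% of 10386 autosomal genes (median -0.03, and -0.16 to 0.04 for single autosomes). Of 15 Y-linked genes 10 fell and 2 rose (median -1.02). Ssty2, of a multicopy spermatid family whose copies share probes, fell from 13.13, 13.33 and 13.48 to 11.85, 11.98 and 12.25 (-1.32 ± 0.11) and Ssty1 by 1.05 ± 0.14, while Sly, a regulator of sex-linked genes in spermatids, stood at -0.33 ± 0.21 and did not pass. The Y-linked rises were H2al2c (1.56 ± 0.20) and Rbm31y (1.08 ± 0.16). Of the other falls, the gene models Gm20738, Gm20747, Gm20815, Gm20867 and Gm21943 lay between -1.41 and -1.02. Whether their probes share copies was not tested, so the Y-linked count may not be of separate genes. Usp9y stood at -1.13, Eif2s3y at -0.63 and Zfy1 at -0.58, while Uty (0.03) and Orly (-0.07) were not called. Of 6 probes for mitochondrial transcripts 5 rose and 0 fell (median 1.17): ND5 rose by 1.38 ± 0.20, ATP6 by 1.22 ± 0.21, ND1 by 1.21 ± 0.16, COX2 by 1.13 ± 0.20 and CYTB, far brighter, by 0.37 ± 0.09, and ND4 stood at 0.22 ± 0.12. These Y-linked and mitochondrial genes were named after their values were seen. The somatic markers rose in the same samples, and their part in the X-linked and mitochondrial counts was not tested.

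The knockdown served as a second pair of stages to read the wild-type change against. It shares no array with the wild-type pair, and the fit shares 1 estimate of spread. Crebbp and Ep300 stood at 7.34 and 7.97 in knockdown and 7.32 and 7.93 in wild-type round spermatids, so these probes did not separate the genotypes. In the knockdown 30.5% of genes were called higher and 32.4% lower. Of the 1163 wild-type genes called at least 2-fold higher 1159 were called higher in the knockdown too, and of the 794 lower 791 were called lower. Over all calls 2836 genes rose in both genotypes, 3130 fell in both, 0 rose in wild type and fell in the knockdown, and 3 did the reverse. A direct test of the difference between the 2 stage changes called 5 of 10759 genes (0.0465%; 747 had an unadjusted p under 0.05). Ccl4 was among them, but it was not detected on any wild-type round array, so no size of its change is given. Its mean level in condensing spermatids was 7.34 in wild type and 5.50 in the knockdown. Fos rose by 2.34 in wild type and 0.63 in the knockdown, the glutamate receptor Gria1 by 1.73 and 0.39 and the RNA decay factor Zfp36 by 1.91 and 0.94, while Prf1, perforin, fell by 0.66 and 1.79. Zfp36 lies beyond the rule for named genes and was named after its value was seen. None of these 5 is a gene of the acrosome, tail or packaging lists.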

How the data were processed

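Illumina bead arrays measured total RNA of 4 groups of 6 arrays, and the 12 wild-type arrays are the subject here. Per the file headers, the non-normalized table gives a mean bead intensity and a detection p-value of 45281 probes on each array. A second deposited table holds intensity values on a linear scale that show quantile normalization over all arrays. Which software and genome build stand behind both tables is not stated in the labels or headers.

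Background was corrected by normexp from the detection p-values with an offset of 16, followed by quantile normalization and log2 (neqc, limma 3.58.1, R 4.3.3). A probe was kept with a detection p under 0.05 on at least 6 of the 24 arrays (19086 probes), of which 3143 without a symbol and 10 with several were left out. The brightest probe stood for a gene. Symbols came from GEO's platform annotation, updated through RefSeq (99.9% of 10759 found). limma fitted 4 group means over all 24 arrays with moderated tests, Benjamini-Hochberg adjustment over all genes and a threshold of 0.05. Precision is limited by the number of arrays: half-widths of the 95% intervals had a median of 0.29 log2 (1.22-fold).

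Members and the 34 gene lists were chosen with earlier results of these data known, and the lists are described by counts and medians without a test. Named genes are the 8 largest rises and falls detected on all wild-type arrays, the 6 brightest one-stage genes in each direction, the 2 largest called rises and falls of each list, any member of a list of up to 15 genes, a fixed set of spermatid genes and up to 4 genotype differences in each direction. No scan date or chip was available to test as a batch. Promoters are RefSeq windows of GRCm38.p6, 1 per gene.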

Additional observations from a re-analysis of the deposited data

Results flagged for a closer look

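Among the 205 genes considered for the text, the farthest array of a group of 6 lay beyond Dixon's 95% limit in 28 of 410 groups (6.83%), where chance flags about 1 in 20. Round replicate 3 accounted for 20 of the 28, with 10 values above and 10 below the other round arrays. Its high values in log2 were Gpat2 (10.02, others 9.44 to 9.64), Adam21 (11.08, others 9.90 to 10.18), Adam6a (10.12, others 8.98 to 9.35), Adam26b (9.53, others 8.36 to 8.78), Catsper2 (14.02, others 13.25 to 13.51), Tubal3 (6.74, others 6.48 to 6.58), Ep300 (8.67, others 7.62 to 7.90), Ddx4 (10.79, others 9.46 to 9.80), Med24 (11.90, others 11.31 to 11.52) and Rpl23 (14.92, others 14.59 to 14.70). Its low values were H3f3a (11.78, others 12.40 to 12.65), H2az1 (10.90, others 11.65 to 12.08), Prdx4 (13.20, others 13.56 to 13.63), Fam162a (9.27, others 10.06 to 10.50), Efcab1 (7.99, others 8.70 to 8.88), Zpbp (12.70, others 13.30 to 13.45), Izumo4 (10.96, the nearest other 11.75), Psma7 (6.38, others 7.05 to 7.21), Cst12 (6.18, others 6.66 to 6.92) and Cd74 (6.22, others 6.70 to 6.91). Without this array Prm1 and Prdx4 lost their call, and Fam162a and Odf3 gained one.

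Condensing replicate 18 was low in Cabyr (13.33, others 13.40 to 13.43), Ldhc (14.87, others 15.09 to 15.18), Ttyh1 (7.10, others 7.34 to 7.48) and Xntrpc (5.39, others 6.10 to 6.50). Single flags fell on condensing replicate 14 for H2bl1 (14.25, others 14.37 to 14.44), on condensing replicate 15 for Lgmn (8.19, others 7.88 to 7.99), on round replicate 4 for Tuba1b (11.79, others 11.64 to 11.68) and on round replicate 6 for Septin12 (6.34, others 5.80 to 5.98).

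The stage change differed between genotypes by the limma test of the difference in 5 genes. The knockdown change minus the wild-type change was -1.70 ± 0.23 for Fos (SE, limma adjusted p = 0.000163), -1.33 ± 0.24 for Gria1 (adjusted p = 0.0259), -1.13 ± 0.21 for Prf1 (adjusted p = 0.0273) and -0.97 ± 0.18 for Zfp36 (adjusted p = 0.0291). For Ccl4 the fit gave -2.01 (adjusted p = 0.000149), which is not a measured size because no wild-type round array detected this gene. Over other settings and omissions of an array the number of such genes ran from 2 to 11.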

How the results depend on the processing

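No paired analysis was possible because the labels give every array its own number and the groups share none. Under 23 other settings the counts of rises, falls and 2-fold changes moved as follows. All-probe median scaling gave 2095 rises, 641 of them and 2263 falls at 2-fold, and 3 genotype differences. Scaling to probes detected on all arrays, chosen after seeing the data, gave 5267 rises, 1935 and 463 at 2-fold, and 2 genotype differences. Cyclic loess gave 528 falls at 2-fold and 2 genotype differences. Without background correction 470 and 248 genes reached 2-fold, with an offset of 50 there were 490 falls at 2-fold, and 502 and 271 did so in the authors' deposited table. The 5 genotype differences became 10 without background correction or with the stricter probe filter, 11 without a filter and 8 with the mean over probes. A detection p under 0.01 gave 145 genes detected only in condensing and 154 only in round spermatids. Leaving out 1 array at a time gave 3130 to 3219 rises, 3507 to 3601 falls, 1133 to 1195 and 729 to 838 at 2-fold, 2 to 9 genotype differences (2 without round replicate 4, 5 or 6, 3 without condensing replicate 15 and 9 without condensing replicate 14), and 72 to 104 and 106 to 130 genes detected in 1 stage. With all arrays the counts detected in 1 stage were 70 and 102. An omission can only keep or raise them, since fewer arrays have to meet the rule.

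Leaving out round replicates 1 and 2 together, and the list counts without round replicate 3, were also chosen after seeing the data. The following signs turned. Under all-probe median scaling these were Tnp1 (0.29), Prm1 (0.0018), Odf4 (0.076), Ybx2 (0.26) and the dimmer Tubb6 (-0.42). Under scaling to detected probes they were Tnp1 (0.90), Prm1 (0.61), H1f6 (0.018, near background), Odf1 (0.68), Akap3 (0.60), Odf4 (0.69), Odf3 (0.52), Gpx4 (0.83), Cox8c (0.31), Tubb4b (0.47), Ybx2 (0.87) and Rps9 (0.018). The mean over probes turned Ldhc (-0.25), Gpx4 (0.34) and Kif17 (-0.17). The cause was not tested. Of 4709 single-gene values under these settings 20 turned, 72 lost and 51 gained a call. Of the 1957 genes called at 2-fold, the mean over probes kept the direction of 1949. Folds of dim probes near background and of bright ones near the highest level may be inexact, which was not tested.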
